A study of Mus musculus with 5 samples.

Results

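Gfap, Vim, Cd44, Osmr, Id3, Cp, Gsn, Ggta1 and Igfbp5 are 9 genes known for being raised in reactive astrocytes, and they are described here across the cell classes of the mouse hippocampus. They were taken by symbol from the 32285 gene features of the count tables, and each symbol was found in all 5 libraries. Astrocytes are glial cells that take up glutamate and potassium, contact blood vessels and respond to injury, infection or amyloid plaques by a graded change called reactivity. A reactive astrocyte thickens its processes with intermediate filament proteins, remodels its surface and matrix, and answers cytokines of the interleukin-6 family and bone morphogenetic proteins. Many of the same genes also serve endothelial, mural, fibroblast, oligodendrocyte or microglial functions, so their level depends on which cells are read.

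The study read RNA and open chromatin from the same nuclei of whole hippocampus with a droplet Multiome kit. One library each was labelled wild type, 5xFAD, 5xFAD with an astrocyte-specific MAGL knockout, 5xFAD with a neuron-specific MAGL knockout and 5xFAD with a global MAGL knockout, and values given as a series of 5 follow this order. 5xFAD mice carry mutant human amyloid precursor protein and presenilin transgenes under a neuronal promoter and deposit amyloid early; 4 of the 5 libraries carry them. MAGL is monoacylglycerol lipase, encoded by Mgll, which breaks down the endocannabinoid arachidonoylglycerol. For the promoter behind each knockout, the age of the mice and the number pooled, nothing is given in the labels. The 5 libraries held 4050 to 7498 nuclei, and 5015, 4962, 5856, 3917 and 7032 were used. Total counts of unique molecular identifiers (UMIs) were 101931020 to 159532813 per library, and 29 to 63 cell barcodes were shared by any 2 libraries (0.694% to 1.16% of the smaller one). Each library held nuclei with the female transcript Xist and nuclei with Y-linked transcripts, so each library held nuclei of both sexes.

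With 1 library per group there is no replicate and no test between groups. A level is the number of UMIs of a gene per 1000000 UMIs of its class (CPM), with an exact 95% Poisson interval, and a ratio is a log2 ratio with its exact binomial interval. Both intervals cover counting error only, not the difference between mice or between nuclei of a library. They take each UMI as an independent count, so they may be too narrow where few nuclei held many of the UMIs. A gene counts as past 2-fold when its log2 ratio after adding 5 CPM to both libraries is beyond 1, and ratios are given where both libraries together hold at least 10 UMIs. The 3 knockout libraries are all set against the same 5xFAD library, so their ratios are not independent of each other. The targeted gene did not follow the labels. Mgll stood at 493, 346, 483, 403 and 430.2 CPM in astrocyte-like nuclei and at 76.2, 78.9, 94.5, 97.0 and 85.5 CPM in excitatory neuron-like nuclei. The labels do not say which part of the gene was deleted, and UMIs from outside that part check nothing, so astrocyte MAGL-KO, neuron MAGL-KO and global MAGL-KO are used here only as names of the libraries so labelled.

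The class of each nucleus came from clusters built without the 9 genes and named from marker genes. Astrocyte-like nuclei were 1 cluster of 223 nuclei (70, 46, 47, 28 and 32), with a median of 3334 to 4542.5 UMIs per nucleus. All 12 astrocyte markers were detected in it, at a summed 16000 to 17061 CPM. Markers of other cells differed between libraries: the summed endothelial markers stood at 120.0 CPM in the wild type against 0 to 16.6 CPM elsewhere. Choroid plexus markers stood at 645 CPM in the wild type against 57.9 to 127.6 CPM elsewhere. Fibroblast markers stood at 183 CPM in the neuron MAGL-KO library against 12.5 to 33.3 CPM elsewhere, and 33 of those 34 UMIs were Bnc2. Oligodendrocyte markers were at 324, 834, 821, 677 and 736 CPM and microglial markers at 74.5 to 155.8 CPM. In that same neuron MAGL-KO library 1 nucleus of 43551 UMIs held 23.4% of all astrocyte UMIs, against 4.19% to 7.42% in the others. The part of these differences in the ratios below was not tested beyond the values given without those nuclei. Between 15.5% and 33.6% of the UMIs of each of the 9 genes lay in clusters that stayed unnamed.

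The genes lie on 6 chromosomes of GRCm38: Gfap at chr11:102887336-102900912 on the minus strand, Vim at chr2:13573927-13582826 on the plus strand, Cd44 at chr2:102811141-102901665 on the minus strand, and Osmr at chr15:6813577-6874969 on the minus strand. Id3 lies at chr4:136143497-136145755 on the plus strand, Cp at chr3:19957054-20009145 on the plus strand, and Gsn at chr2:35256380-35307892 on the plus strand. Ggta1 lies at chr2:35400179-35463231 and Igfbp5 at chr1:72857932-72874884, both on the minus strand. The 250 bases before a RefSeq start (GRCm38.p6) are printed for 4 genes that differ in the listed peaks over that window. RefSeq gives 2 such starts for Cp and 3 for Gsn, and the most upstream of each is shown. A listed accessibility peak covered the windows of Cd44 and Gsn in all 5 libraries and those of Gfap and Cp in 0. Each is written 5′ to 3′ on the gene's strand, ends at the base before the start, and holds no base of an annotated exon. Capitals mark matches, on either strand, to the STAT motif, TTCNNNGAA, to the AP-1 motif, TGANTCA, to the TATA box, TATAAA, to the CCAAT box or to the GC box, GGGCGG.
Gfap chr11:102897201-102897450: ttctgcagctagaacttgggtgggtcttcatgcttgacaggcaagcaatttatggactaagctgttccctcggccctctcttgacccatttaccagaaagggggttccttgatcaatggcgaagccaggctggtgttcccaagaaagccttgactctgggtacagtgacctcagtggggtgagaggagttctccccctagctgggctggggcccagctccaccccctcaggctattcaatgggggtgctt
Cd44 chr2:102901666-102901915: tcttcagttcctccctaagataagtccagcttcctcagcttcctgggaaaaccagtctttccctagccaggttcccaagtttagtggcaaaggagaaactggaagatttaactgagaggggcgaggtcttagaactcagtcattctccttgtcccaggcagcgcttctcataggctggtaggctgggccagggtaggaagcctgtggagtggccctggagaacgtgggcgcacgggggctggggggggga
Gsn chr2:35256109-35256358: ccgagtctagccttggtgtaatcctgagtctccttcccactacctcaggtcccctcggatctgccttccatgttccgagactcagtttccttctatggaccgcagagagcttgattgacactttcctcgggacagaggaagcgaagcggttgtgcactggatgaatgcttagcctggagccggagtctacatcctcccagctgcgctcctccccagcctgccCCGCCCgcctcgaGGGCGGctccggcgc
Cp chr3:19956804-19957053: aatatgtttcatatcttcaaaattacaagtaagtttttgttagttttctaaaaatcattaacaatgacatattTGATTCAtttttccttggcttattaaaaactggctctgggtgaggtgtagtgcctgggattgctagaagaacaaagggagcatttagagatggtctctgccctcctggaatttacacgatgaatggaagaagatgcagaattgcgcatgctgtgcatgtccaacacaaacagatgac
No motif of the 5 was found in the windows of Gfap and Cd44. The Gsn window held 2 GC boxes, at bases -28 and -15 from the start. The Cp window held 1 AP-1 match at base -177 and had the lowest GC content of the 4 (37.2%, against 55.6% for Gfap, 56.4% for Cd44 and 60.8% for Gsn). Among 32851 windows of the same length, 7.02% held the STAT motif, 6.749% AP-1, 12.37% the TATA box, 33.85% the CCAAT box and 32.74% the GC box. The windows not printed held other matches: that of the other Cp start a CCAAT box at -118 and TATA boxes at -27 and -25, with no listed peak in any library. Those of the other Gsn starts held a CCAAT box at -199 and a GC box at -60 (peak in 0 libraries), and CCAAT boxes at -233, -227 and -140 with a GC box at -12 (peak in 4). A match is a description of the letters only.

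Across classes, the genes divided into those whose level was highest in astrocyte-like nuclei among glia and neurons and those with a higher level elsewhere. Levels are per UMI of a class, and the far more frequent neurons together held most Gfap UMIs: 136, 64 and 85 in the excitatory, dentate granule and inhibitory classes beside 101 in astrocyte-like nuclei. Gfap, the intermediate filament protein that defines astrocytes in histology, stood at 97.5 CPM in astrocyte-like nuclei (101 UMIs, interval 79.5 to 118.5). It was at 1.43 CPM in oligodendrocyte-like, 4.30 in microglia-like, 3.41 in oligodendrocyte precursor-like and 0.61 to 0.845 in the 3 neuron classes. Id3, an inhibitor of basic helix-loop-helix transcription factors and a target of bone morphogenetic proteins, stood at 74.4 CPM in astrocyte-like nuclei (58.7 to 92.9). No Id3 UMI was seen in microglia-like nuclei, which allows up to 3.97 CPM, and the level was 246 CPM in the 17 endothelial-like nuclei and 138 CPM in the 68 mural or fibroblast-like nuclei. Osmr, the receptor for oncostatin M, stood at 19.3 CPM in astrocyte-like nuclei (11.8 to 29.8) and had 0 UMIs in microglia-like, oligodendrocyte-like and precursor-like nuclei, which allows up to 3.97, 0.881 and 0.967 CPM. It was higher in endothelial-like (383 CPM, 210 to 643) and mural or fibroblast-like nuclei (82.7 CPM, 51.2 to 126).

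**Figure D1:**
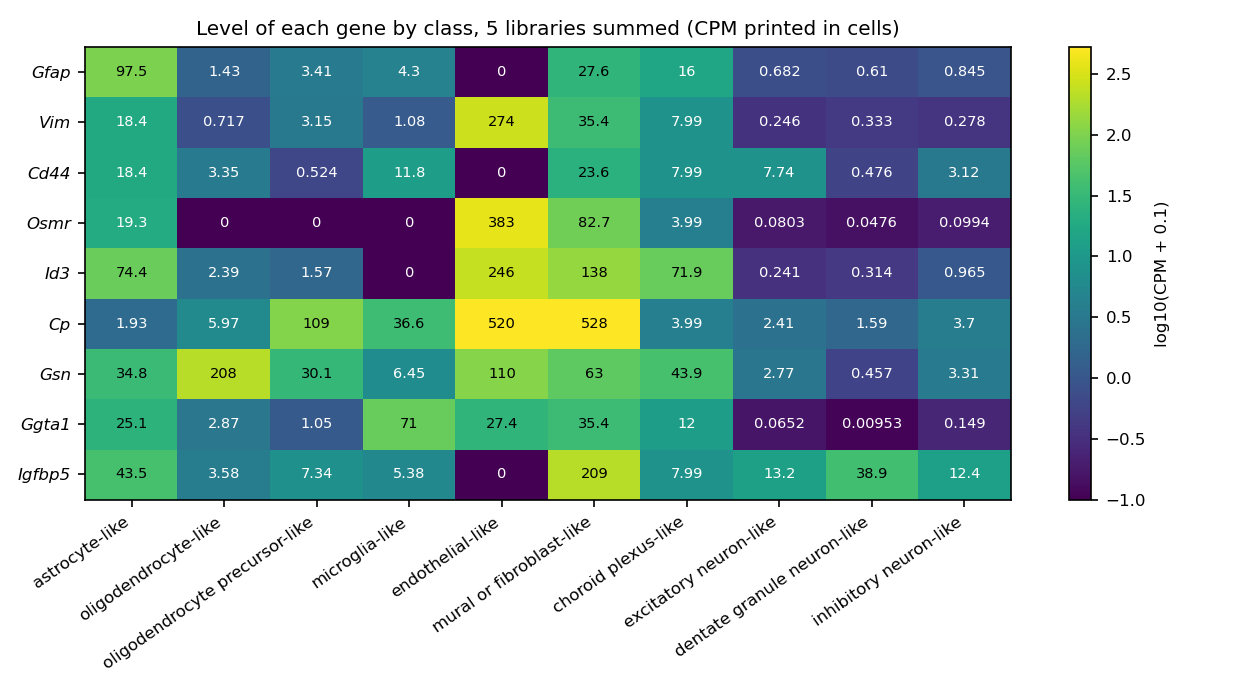
Level of each of the 9 genes (rows) in each cell class (columns), with the 5 libraries summed; colour is log10 of CPM plus 0.1 and the printed number is CPM. Gfap is highest in astrocyte-like nuclei at 97.5 CPM, Gsn in oligodendrocyte-like at 208 CPM, and Cp is at 1.93 CPM in astrocyte-like nuclei.

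Vim, the other filament protein of the set, stood at 18.4 CPM in astrocyte-like nuclei (11.1 to 28.7) and at 274 CPM in endothelial-like nuclei (131 to 504). Gsn, gelsolin, which severs actin filaments, was highest in oligodendrocyte-like nuclei at 208 CPM, with 34.8 CPM (24.4 to 48.1) in astrocyte-like nuclei. Ggta1, the enzyme that adds alpha-galactose to surface glycans, was higher in microglia-like (71.0 CPM, 54.9 to 90.3) than in astrocyte-like nuclei (25.1 CPM, 16.4 to 36.8), and these intervals do not overlap. Cp, ceruloplasmin, the copper-carrying ferroxidase that loads iron onto transferrin, had 2 UMIs in all 223 astrocyte-like nuclei (1.93 CPM, upper bound 6.98). Its level was 528 CPM in mural or fibroblast-like nuclei, 520.1 CPM in endothelial-like, 109 CPM in oligodendrocyte precursor-like and 36.6 CPM in microglia-like nuclei. Cd44, the hyaluronan receptor, stood at 23.6 CPM in mural or fibroblast-like (8.67 to 51.4), 18.4 CPM in astrocyte-like, 11.8 CPM in microglia-like and 7.74 CPM in excitatory neuron-like nuclei, which held 1542 of its 2588 UMIs. Igfbp5, which binds insulin-like growth factors, was highest in mural or fibroblast-like nuclei at 209 CPM (156 to 273). It stood at 43.5 CPM in astrocyte-like nuclei (31.7 to 58.2) and at 38.9 CPM in dentate granule neuron-like nuclei.

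Most astrocyte-like nuclei held few UMIs of these genes. Gfap was seen in 17 of 70, 14 of 46, 7 of 47, 14 of 28 and 10 of 32 nuclei, or 24.3%, 30.4%, 14.9%, 50.0% and 31.2%. Thinned to 1000 UMIs per nucleus the shares were 8.57%, 8.70%, 4.26%, 10.7% and 3.12%, from 6, 4, 2, 3 and 1 nuclei. The single nucleus with most Gfap held 3, 6, 3, 5 and 2 UMIs. None of the 9 genes was detected in 29 of 70 wild-type and 16 of 46 5xFAD nuclei, and the largest number detected was 6 and 3. In the neuron MAGL-KO library 1 nucleus had 8 of the 9 genes. Osmr shared nuclei with Gfap in 6 of the 7 wild-type nuclei that held it and in 3 of 6 in 5xFAD. Id3 did so in 3 of 11 and 4 of 13. In astrocyte, neuron and global MAGL-KO, Id3 was seen with Gfap in 3, 8 and 0 nuclei and without it in 6, 3 and 4. Osmr was seen with Gfap in 0, 2 and 1 nuclei there and without it in 1, 0 and 0. These counts were not adjusted for the depth of the nuclei.

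In astrocyte-like nuclei of 5xFAD against wild type, 1 of the 7 genes with enough UMIs was past 2-fold lower (Cd44) and 0 were past 2-fold higher, where 5.53% and 5.07% of the 7141 genes tested in this class were. The interval of every one of the 7 ratios held 0, where 3.88% of genes had one above 0 and 3.46% one below. Their median log2 ratio after adding 5 CPM was -0.04, beside 0.00 for all genes tested. Gfap stood at 84.3, 108, 49.9, 145 and 107.6 CPM, from 26, 26, 9, 27 and 13 UMIs. Over all nuclei the wild-type and 5xFAD levels were close, with a log2 ratio of 0.36 (-0.48 to 1.20). The sexes, given below, went opposite ways. Id3 stood at 48.6, 70.9, 66.6, 134 and 66.2 CPM, and its ratio in 5xFAD against wild type was 0.54 (-0.55 to 1.65). Cd44 stood at 29.2, 8.34, 16.6, 21.5 and 8.27 CPM from 9, 2, 3, 4 and 1 UMIs, a ratio of -1.81 (-5.06 to 0.46). Without nuclei holding 2 or more UMIs of vascular or choroid markers (21 of the 70 wild-type nuclei), Cd44 was left with 3 UMIs in the wild type and 2 in 5xFAD, too few for a ratio.

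The other genes were read from few UMIs. Igfbp5 stood at 51.9, 37.5, 61.0, 32.2 and 24.8 CPM, from 16, 9, 11, 6 and 3 UMIs, and its ratio in 5xFAD against wild type was -0.47 (-1.83 to 0.80). Ggta1 stood at 38.9, 20.8, 16.6, 26.9 and 8.27 CPM, from 12, 5, 3, 5 and 1 UMIs, and its ratio was -0.90 (-2.76 to 0.71). Osmr stood at 22.7, 29.2, 5.55, 21.5 and 8.27 CPM, from 7, 7, 1, 4 and 1 UMIs, with a ratio of 0.36 (-1.38 to 2.10). Gsn had a ratio of -0.05 (-1.86 to 1.66). These 4 genes had overlapping intervals in the wild type and 5xFAD. Vim had 4, 1, 4, 8 and 2 UMIs, and 6 of the 8 in the neuron MAGL-KO library came from 1 nucleus. Cp had 2 UMIs in neuron MAGL-KO and 0 in the wild type, 5xFAD, astrocyte MAGL-KO and global MAGL-KO, which allows up to 11.96, 15.4, 20.5 and 30.5 CPM.

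**Figure D2:**
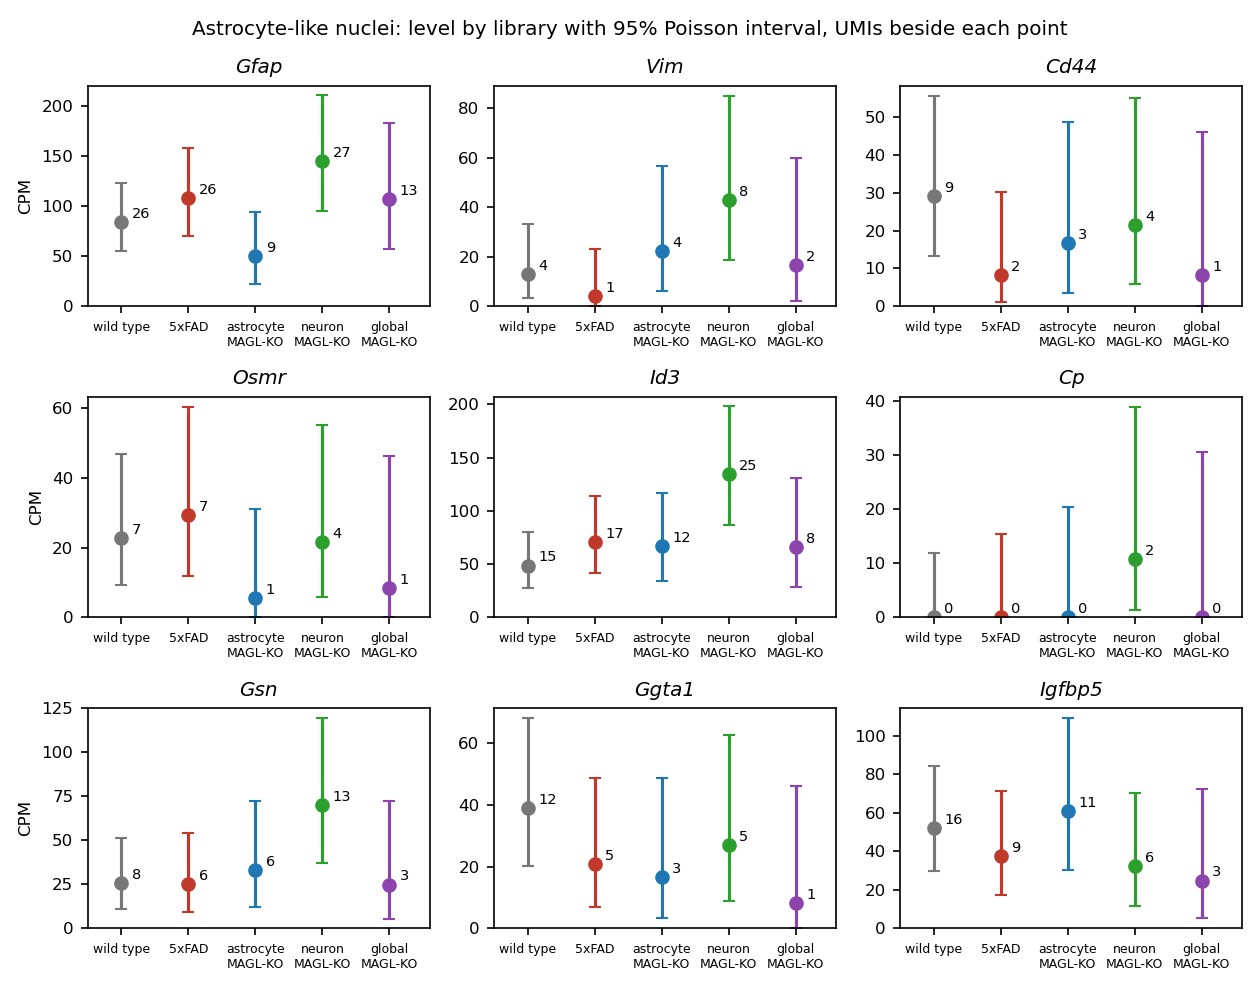
Level in CPM of the 9 genes in astrocyte-like nuclei of each library; bars are exact 95% Poisson intervals and the number beside each point is its UMIs. The intervals of the wild type and 5xFAD overlap in every panel; Gfap is lowest at 49.9 CPM in the astrocyte MAGL-KO library and Cp is at 0 in 4 libraries.

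In the astrocyte MAGL-KO library against 5xFAD, 4 genes had enough UMIs, and 1 was past 2-fold lower and 0 higher, beside 6.31% and 8.38% of 6337 genes. This was Gfap, at 49.9 against 108 CPM, a log2 ratio of -1.12 whose interval just held 0 (-2.40 to 0.02). The other 3 were Id3 (-0.09), Gsn (0.41) and Igfbp5 (0.70), with intervals that held 0. Without the nuclei holding vascular or choroid marker UMIs the interval of Gfap lay below 0 (-3.57 to -0.33), and with nuclei assigned by their highest marker score the ratio after adding 5 CPM was -0.34. The 2 sexes within the libraries did not give 1 order. In nuclei with Xist and no Y-linked UMI, Gfap stood at 68.7, 211, 37.7, 118 and 137 CPM, from 13, 16, 3, 10 and 7 UMIs. In nuclei with Y-linked UMIs and no Xist it stood at 109, 47.3, 13.1, 244 and 67.8 CPM, from 9, 5, 1, 6 and 4 UMIs. Gfap was therefore above the wild type in the Xist nuclei of 5xFAD and below it in the Y-linked nuclei, while the astrocyte MAGL-KO library was lowest in both. The interval for the Y-linked nuclei of 5xFAD against wild type was -3.12 to 0.53. For the Xist nuclei only 17 in 5xFAD were left, under the 20 set for a ratio. Their level intervals did not overlap, at 36.6 to 117 CPM in the wild type and 121 to 343 CPM in 5xFAD. However, 1 nucleus held 6 of the 26 Gfap UMIs of 5xFAD, more than all its Y-linked nuclei together. The levels by sex were not read without it. Over all nuclei, without the nucleus with most Gfap in each library, Gfap stood at 75.5 CPM in the wild type and 85.3 CPM in 5xFAD. Of astrocyte-like nuclei read as 1 sex, 68.25% held Xist in the wild type and 43.6% in 5xFAD.

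In the neuron MAGL-KO library, Gsn was past 2-fold higher than in 5xFAD, 1 of 6 genes with enough UMIs, and 0 were lower, where 7.63% and 7.25% of 6333 genes were. Gsn stood at 25.9, 25.0, 33.3, 69.9 and 24.8 CPM, and its ratio was 1.48 (-0.01 to 3.16). Of its 13 UMIs in that library 6 came from 1 nucleus. Without the deepest nucleus of each library, which held another 5 there, the interval was -0.66 to 2.86. After adding 5 CPM Gsn was at 0.93 without those nuclei and at 0.88 without the nuclei holding vascular or choroid marker UMIs, so it was no longer past 2-fold in either. Id3 had a ratio of 0.92 (-0.02 to 1.90), and without those nuclei its level was 161 against 72.1 CPM with an interval of 0.18 to 2.18. Id3 was then past 2-fold in place of Gsn, at 1.11 after adding 5 CPM, and at 1.31 without the nuclei holding vascular or choroid marker UMIs. Of its 25 UMIs in that library 7 came from 1 nucleus, which was not the deepest. Without the nucleus with most Id3 in each library, Id3 stood at 100.2 CPM there and at 59.2 CPM in 5xFAD. The other 4 ratios were 0.42 for Gfap (-0.41 to 1.25), -0.44 for Osmr (-2.66 to 1.53), 0.37 for Ggta1 (-1.75 to 2.49) and -0.22 for Igfbp5 (-1.99 to 1.44). By sex, Id3 in that library stood at 47.2 CPM in the 18 Xist nuclei and at 609 CPM in the 5 Y-linked nuclei, which held 15 of its 25 UMIs. In the global MAGL-KO library, 0 of 3 genes were past 2-fold, beside 9.46% of 5614 genes lower and 6% higher. Its ratios against 5xFAD were -0.01 for Gfap (-1.10 to 1.00), -0.10 for Id3 and -0.60 for Igfbp5.

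**Figure D3:**
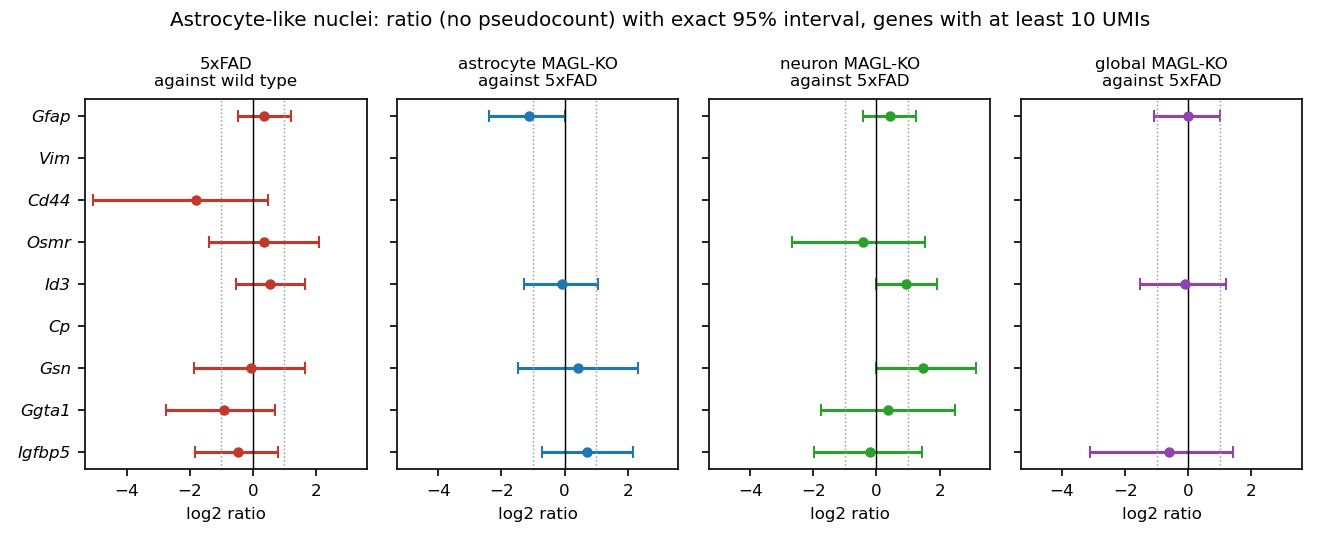
Log2 ratio without pseudocount (x axis) of the genes that reached 10 UMIs over both libraries, in astrocyte-like nuclei, for the 4 comparisons; bars are exact 95% intervals and dotted lines mark 2-fold. Every interval drawn holds 0, from -5.06 to 0.46 for Cd44 in 5xFAD against wild type to -1.10 to 1.00 for Gfap in the global MAGL-KO library.

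The pathways around these genes were read in the same nuclei from lists of 7 themes. Of 13 genes of interleukin-6 family receptor signalling, 7 had enough UMIs in 5xFAD against wild type, and 2 were past 2-fold higher and 0 lower, where 5.07% and 5.53% of all genes tested were. Cntfr, the ciliary neurotrophic factor receptor, stood at 113 against 38.9 CPM, a log2 ratio after adding 5 CPM of 1.42; the interval of the ratio without that addition was 0.50 to 2.65. Tyk2, a kinase of these receptors, was the other, from 8 against 4 UMIs, and its interval held 0. The next values are given in the same way. Stat3, which carries the signal of these receptors to the nucleus, had 0.44 (-0.33 to 1.26). Of 16 genes of bone morphogenetic protein and Id signalling, 10 were read and 0 were past 2-fold in 5xFAD; in the neuron MAGL-KO library 2 of 11 were higher and 1 lower, where 7.63% and 7.25% of all genes tested were. Id2, a relative of Id3, was among them, at 204 against 87.6 CPM (1.18, 0.42 to 2.06). Its intervals that excluded 0 were also those of Bmpr2, a receptor subunit, in 5xFAD (-0.55, -1.05 to -0.08), and in neuron MAGL-KO those of the receptor subunit Bmpr1b (-0.56, -0.89 to -0.25), Id4 (0.79, 0.07 to 1.59) and Smad9 (2.00, 0.26 to 5.79, from 9 against 2 UMIs). Id4 had one in astrocyte MAGL-KO too (0.84, 0.11 to 1.64). Of 38 further reactive astrocyte genes, 8 were read and 0 were past 2-fold in any of the 4 comparisons. Intervals that excluded 0 among these 8 were those of Clu, which encodes clusterin, in 5xFAD (0.35, 0.12 to 0.58) and global MAGL-KO (-0.50, -0.83 to -0.19), and of Cst3, which encodes cystatin C, in 5xFAD (0.25, 0.10 to 0.41), astrocyte MAGL-KO (0.61, 0.46 to 0.77) and neuron MAGL-KO (0.17, 0.01 to 0.34). Those of Mt1, a metallothionein, in astrocyte MAGL-KO (0.60, 0.06 to 1.17) and neuron MAGL-KO (0.65, 0.11 to 1.21) did so too. Over all genes tested 3.88%, 5.29%, 5.16% and 3.83% had an interval above 0 in the 4 comparisons, and 3.46%, 5.21%, 5.13% and 3.97% one below. The lists for filament partners, insulin-like growth factors, iron handling and Cd44 ligands had 2, 3, 4 and 3 genes read, of which only Vcan, a matrix proteoglycan, was past 2-fold in 5xFAD against wild type, at 20.8 against 55.1 CPM (-1.22, -3.20 to 0.09). Vcan was past 2-fold higher in each of the 3 MAGL-KO libraries against the same 5 UMIs of 5xFAD, at 77.7, 53.7 and 49.6 CPM, and its interval lay above 0 in astrocyte MAGL-KO alone (0.34 to 3.72). Vcan is also among the markers used here to name oligodendrocyte precursor-like nuclei. Whether its UMIs came from precursor RNA was not tested. The other list genes past 2-fold against 5xFAD were Tyk2, Bmp6 and Igfbp2 lower and Plec higher in astrocyte MAGL-KO, Smad9 and Plec higher and Smad5 lower in neuron MAGL-KO, and Tfrc higher in global MAGL-KO. Each had under 20 UMIs over both libraries.

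The chromatin of the same astrocyte-like nuclei gave a peak near the start of Gfap, at chr11:102898021-102899085. It lies inside the annotated gene, upstream of the RefSeq start and beyond the window printed above, and it was listed in all 5 libraries with 863 to 1065 bases. It held 76.8 transposase cut sites per 1000000 cut sites in peaks (also written CPM here) in astrocyte-like nuclei (66.4 to 88.4), 29.3 in oligodendrocyte precursor-like, 1.81 to 3.20 in the neuron classes, and 0 cut sites in oligodendrocyte-like and microglia-like nuclei, which allows up to 0.423 and 1.17 CPM. By library the astrocyte level was 61.0, 113, 68.1, 65.2 and 83.8 CPM, from 52, 63, 31, 26 and 22 cut sites. The 5xFAD level was the highest of the 5. The log2 ratio was 0.89 in 5xFAD against wild type (0.34 to 1.45), where 7.47% of the starts of 13987 genes had an interval above 0. Against 5xFAD the ratio was -0.73 in the astrocyte MAGL-KO library (-1.40 to -0.09), -0.80 in neuron MAGL-KO (-1.52 to -0.12) and -0.43 in global MAGL-KO (-1.21 to 0.29), where 7.08%, 7.24% and 6.03% of starts had an interval below 0. The Gfap peak also differed in other classes: in 5xFAD against wild type it was higher in excitatory neuron-like nuclei (2.78 against 1.61 CPM, 0.79, 0.24 to 1.35) and lower in oligodendrocyte precursor-like nuclei (17.9 against 41.4 CPM, -1.21, -2.16 to -0.34). Of all starts 18.5% had an interval above 0 in the former and 8.08% one below 0 in the latter. It was also higher in dentate granule neuron-like nuclei of astrocyte MAGL-KO against 5xFAD (0.61, 0.10 to 1.13), beside 12.3% of starts. In astrocyte-like nuclei both sexes held the same order of the wild type and 5xFAD: Xist nuclei had 66.0 CPM in the wild type and 107 in 5xFAD, and Y-linked nuclei 66.6 and 123. In the neuron MAGL-KO library the Gfap peak was lower than in 5xFAD, while the Gfap UMI level was the highest of the 5. The interval of that UMI ratio against 5xFAD, given above, held 0, so a difference in UMIs was not shown. The intervals of cut sites, here and below, take each site as an independent count. Both ends of a fragment can fall in the same peak, so these intervals may be too narrow, above all where a bound lies near 0.

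**Figure D4:**
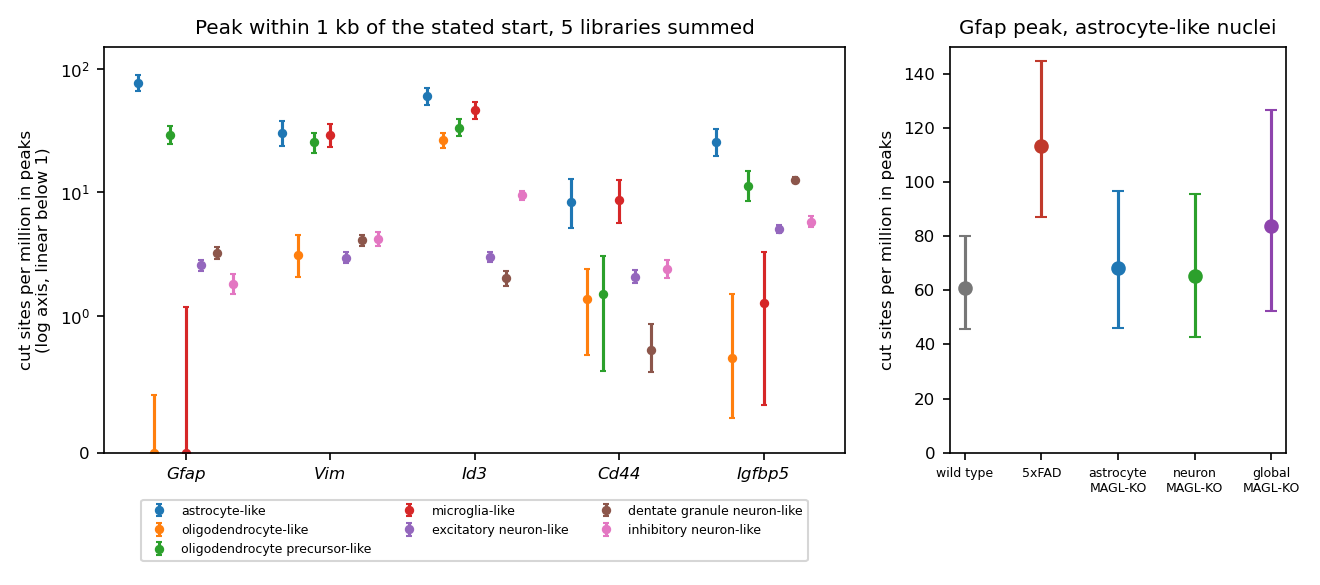
Left, cut sites, in CPM, in the peak within 1 kb of the stated start of 5 genes, by class with the 5 libraries summed (log axis, linear below 1); right, the Gfap peak in astrocyte-like nuclei by library; bars are exact 95% Poisson intervals. The Gfap peak has 0 cut sites in oligodendrocyte-like and microglia-like nuclei and is highest in 5xFAD, at 113 CPM.

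At the other starts, chromatin and RNA did not always go together. The Id3 peak held 59.8 cut sites, in CPM, in astrocyte-like nuclei and 46.1 in microglia-like nuclei, which had no Id3 UMI. In astrocyte-like nuclei it stood at 62.1, 70.1, 30.8, 82.7 and 45.7 CPM, and the ratio in the astrocyte MAGL-KO library against 5xFAD was -1.19 (-2.18 to -0.28). By sex this peak gave 50.0 and 113 CPM in the Xist nuclei of the wild type and 5xFAD, but 97.6 and 31.8 in their Y-linked nuclei. In astrocyte MAGL-KO it stood at 39.6 CPM in Xist and 33.8 CPM in Y-linked nuclei, so it lay below 5xFAD in Xist nuclei alone. The Vim peak was alike in astrocyte-like, microglia-like and precursor-like nuclei (30.1, 28.9 and 25.3 CPM). Its ratio in 5xFAD against wild type in astrocyte-like nuclei was 0.94 (0.03 to 1.86), beside 7.47% of starts above 0. By sex the Vim peak gave 22.0 and 29.8 CPM in the Xist nuclei of the wild type and 5xFAD, from 11 and 5 cut sites. In their Y-linked nuclei it gave 13.3 and 55.7 CPM, from 3 and 14 cut sites. The intervals of these levels overlapped in both sexes. In the same comparison it was as much higher in inhibitory neuron-like nuclei (0.97, 0.32 to 1.66, beside 13.6% of starts above 0) and lower in excitatory ones (-0.49, -0.96 to -0.04, beside 9.53% below). Against 5xFAD the Vim peak was higher in microglia-like nuclei of astrocyte and global MAGL-KO (1.03, 0.07 to 2.05, and 1.07, 0.05 to 2.14), in precursor-like nuclei of astrocyte MAGL-KO (1.21, 0.28 to 2.201) and in excitatory neuron-like nuclei of neuron MAGL-KO (0.50, 0.02 to 0.98). Of all starts 10.3%, 8.98%, 9.58% and 9.2% had an interval above 0 there. The Igfbp5 peak held 25.3 CPM in astrocyte-like and 12.5 in dentate granule neuron-like nuclei, and 0.688 in oligodendrocyte-like nuclei. In dentate granule neuron-like nuclei it was lower than in 5xFAD (14.4 CPM) in astrocyte MAGL-KO (9.71 CPM, -0.57, -0.84 to -0.29) and neuron MAGL-KO (11.1 CPM, -0.37, -0.65 to -0.10), where 16.1% and 22.9% of starts had an interval below 0. In neuron MAGL-KO the Igfbp5 UMIs of these nuclei, given below, went the other way. In precursor-like nuclei the peak was lower in 5xFAD than in the wild type (-1.57, -3.02 to -0.34, from 7 against 27 cut sites), beside 8.08% of starts. The Id3 peak was lower in oligodendrocyte-like nuclei of global MAGL-KO (-0.98, -1.99 to -0.08) and in excitatory neuron-like nuclei of neuron MAGL-KO (-0.64, -1.14 to -0.14), beside 7.39% and 23.9% of starts. The Cd44 peak held 8.31 in astrocyte-like, 8.58 in microglia-like, 2.07 in excitatory and 0.746 in dentate granule neuron-like nuclei. It was higher than in 5xFAD in dentate granule and inhibitory neuron-like nuclei of neuron MAGL-KO (1.24, 0.07 to 2.53, and 0.93, 0.15 to 1.76), beside 9.32% and 7.36% of starts. The other ratios of these 5 peaks outside astrocyte-like nuclei had intervals that held 0. No peak was listed within 1 kb of the stated starts of Osmr and Cp. Listed peaks at the several starts of Gsn and Ggta1 differed between libraries (4108 to 6944 bases for Gsn), so their sums were not compared.

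Outside astrocytes the counts were larger for Gsn in oligodendrocyte-like nuclei. It stood at 177.1, 177.3, 268, 232 and 192 CPM, from 156, 183, 205, 216 and 111 UMIs. The wild type and 5xFAD were level, with a log2 ratio of 0.00 (-0.31 to 0.32). Against 5xFAD it was higher in the astrocyte MAGL-KO library by 0.60 (0.30 to 0.89) and in neuron MAGL-KO by 0.39 (0.10 to 0.68), where 7.8% and 8.56% of genes had an interval above 0. In global MAGL-KO the ratio was 0.12 (-0.24 to 0.46). By sex the astrocyte MAGL-KO ratio was 0.53 (0.07 to 0.99) in Xist nuclei and 0.61 (0.12 to 1.10) in Y-linked nuclei. In neuron MAGL-KO it was 0.46 (0.05 to 0.88) in Xist nuclei, and in the 34 Y-linked nuclei it was 0.27 with an interval that held 0 (-0.41 to 0.90). In global MAGL-KO it was 0.05 in Xist nuclei (-0.49 to 0.57) and 0.63 (0.07 to 1.17) in Y-linked nuclei. Cp in oligodendrocyte precursor-like nuclei stood at 125, 105.1, 94.4, 105.0 and 116 CPM, and the interval of each of its 4 ratios held 0. In the Y-linked nuclei alone the interval of 5xFAD against wild type lay below 0 (-0.74, -1.36 to -0.13), and in the Xist nuclei it held 0 (-0.58 to 0.94).

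In microglia-like nuclei Ggta1 stood at 67.7, 73.8, 98.5, 19.2 and 75.2 CPM, from 7, 16, 25, 3 and 15 UMIs. It was past 2-fold lower in the neuron MAGL-KO library against 5xFAD (-1.94, -4.36 to -0.14), 1 of 2 genes with enough UMIs, beside 6.73% of 6156 genes. That library had 42 Xist and 6 Y-linked microglia-like nuclei, and Ggta1 in its Xist nuclei stood at 23.5 CPM against 16.9 CPM in those of 5xFAD, from 3 and 2 UMIs. Ggta1 was also lower in 1 of the 2 microglia-like clusters (37.9 CPM) than in the other (114 CPM). The cluster with the higher level made up 97.7% of the class in the wild type and 34.6% to 44.2% in the 4 libraries carrying 5xFAD. Its share was alike in 5xFAD (35.3%) and neuron MAGL-KO (34.6%). Cp was past 2-fold higher in the global MAGL-KO library, 1 of 2 genes beside 5.22% of 6384, at 75.2 against 32.3 CPM with an interval that held 0 (-0.16 to 2.76). Cd44 had 0, 6, 2, 1 and 2 UMIs in microglia-like nuclei, under the 10 needed for a ratio, and its 0 in the wild type allows up to 35.7 CPM.

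**Figure D5:**
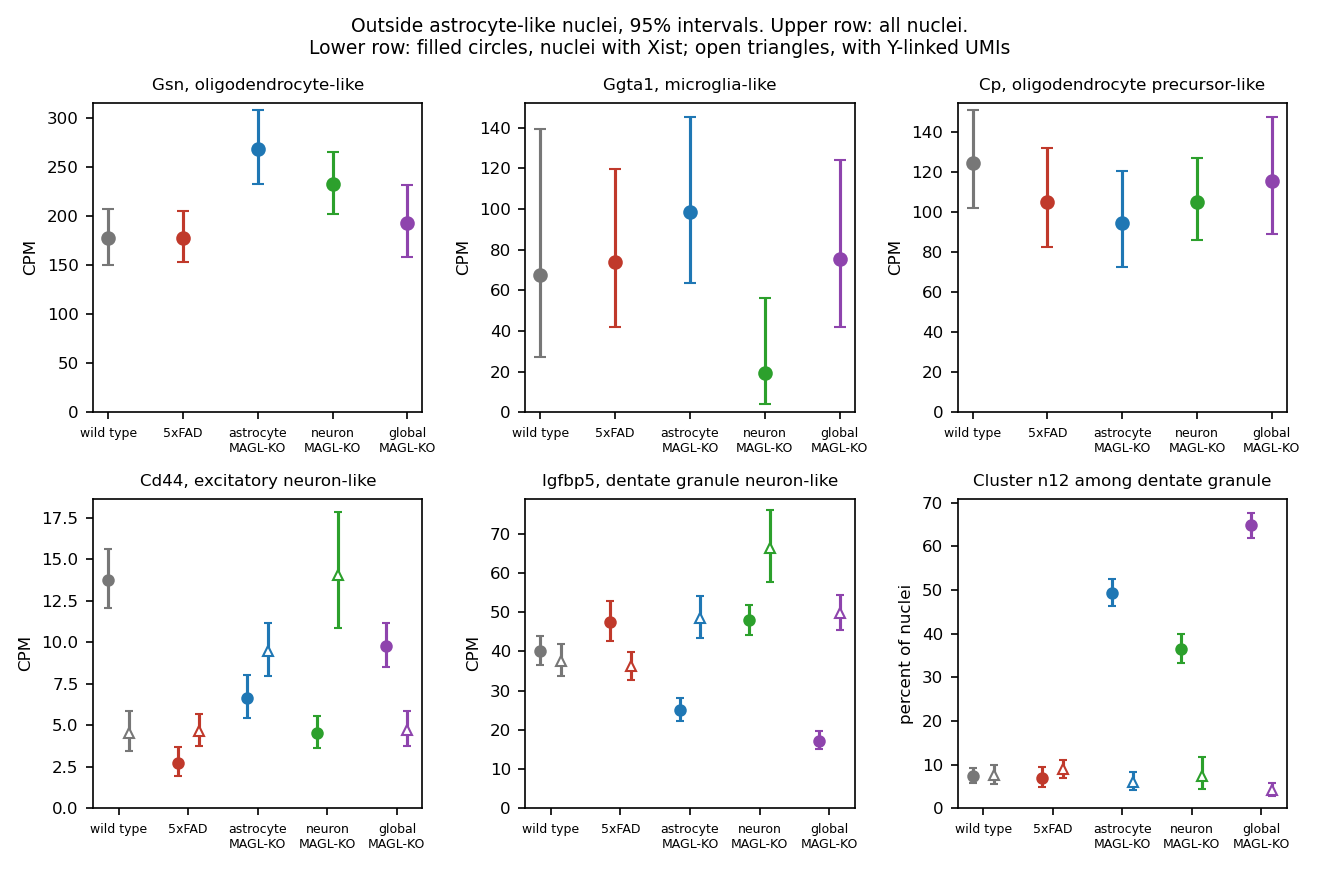
Upper row, level in CPM of Gsn, Ggta1 and Cp by library in the glial class named; lower row, Cd44 and Igfbp5 levels and the share of cluster n12 among dentate granule neuron-like nuclei, split into nuclei with Xist (filled circles) and with Y-linked UMIs (open triangles); bars are exact 95% intervals. Cluster n12 holds 36.6% to 64.9% of the Xist nuclei of the 3 MAGL-KO libraries and 4.12% to 8.92% of all other sets of nuclei.

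Neurons held most of the UMIs of Cd44 and Igfbp5, and there the ratios between libraries were not the same in both sexes. Cd44 in excitatory neuron-like nuclei stood at 10.4, 4.32, 9.48, 6.44 and 8.02 CPM, from 409, 186, 362, 185 and 400 UMIs. 5xFAD was the lowest, with a log2 ratio against wild type of -1.26 (-1.52 to -1.01), where 12% of 19266 genes had an interval below 0; after adding 5 CPM it was -0.72, not past 2-fold. Against 5xFAD the ratios were 1.13 (0.87 to 1.40), 0.58 (0.27 to 0.88) and 0.89 (0.64 to 1.15), where 44.6%, 41.4% and 17.4% of genes had an interval above 0. In Xist nuclei Cd44 stood at 13.7, 2.71, 6.65, 4.54 and 9.77 CPM and in Y-linked nuclei at 4.55, 4.66, 9.47, 14.1 and 4.74 CPM. The ratio of 5xFAD against wild type was -2.34 (-2.86 to -1.85) in Xist nuclei and 0.04 (-0.45 to 0.53) in Y-linked nuclei. Those of global MAGL-KO against 5xFAD were 1.85 (1.36 to 2.37) and 0.02 (-0.42 to 0.46), and those of astrocyte MAGL-KO were 1.29 and 1.02, both with intervals above 0. In neuron MAGL-KO the Y-linked nuclei had the larger ratio, at 0.74 (0.19 to 1.32) in Xist and 1.59 (1.12 to 2.06) in Y-linked nuclei.

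Much of this Cd44 came from 1 small cluster. Cluster n33, 363 excitatory neuron-like nuclei whose leading genes include Plch1, Angpt1 and Cd44 itself, made up 5.00%, 3.63%, 4.26%, 2.23% and 4.42% of the class. Inside it Cd44 stood at 92.9, 57.5, 101.5, 97.7 and 94.0 CPM, so the 5xFAD library was the lowest there too (-0.69, -1.01 to -0.38). By sex this held in its Xist nuclei (58.6 against 114.8 CPM in the wild type), while in Y-linked nuclei the wild type was at 63.7 CPM and 5xFAD at 66.2 CPM with overlapping intervals. In the Xist nuclei of the wild type n33 was 6.13% of the class, and 1.87% in its Y-linked nuclei. Without n33 the class stood at 4.14 CPM in the wild type and 1.40 CPM in 5xFAD (-1.57, -2.03 to -1.12). Against 5xFAD the ratios without n33 were 1.23 (0.76 to 1.71) in astrocyte MAGL-KO, 1.56 (1.08 to 2.04) in neuron MAGL-KO and 1.12 (0.67 to 1.59) in global MAGL-KO, so that of neuron MAGL-KO, where n33 had its lowest share, moved from 0.58 and became the highest of the 3. Since each sex in a library may be 1 mouse, these values cannot be told apart from a difference between mice. In inhibitory neuron-like nuclei Cd44 was also lowest in 5xFAD, with an interval of -1.60 to -0.30 against the wild type, where 8.22% of genes had one below 0. Split by sex this rested on few UMIs: 6 and 2 in the Xist nuclei of the wild type and 5xFAD, and 6 and 9 in their Y-linked nuclei, where the interval held 0 (-2.25 to 1.18). In Y-linked nuclei 5xFAD was not the lowest, at 1.32 CPM from 9 UMIs, beside 1.14 CPM in neuron MAGL-KO and 0.509 CPM in global MAGL-KO from 1 and 2 UMIs.

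In neurons the rule of 2-fold after adding 5 CPM says little, since a gene under 5 CPM in both libraries cannot pass it. Of the 9 genes, only Igfbp5, and Cd44 in the excitatory class, exceeded 5 CPM there in any library. Intervals of the ratio that excluded 0 are given beside the share of all genes that had one. In 5xFAD against wild type Gfap was higher in excitatory (1.94, 0.61 to 3.51, from 25 against 6 UMIs) and inhibitory neuron-like nuclei (2.29, 0.50 to 4.70, from 17 against 3), where 11.7% and 11.1% of genes had an interval above 0. Cp was lower in dentate granule neuron-like nuclei (-0.91, -1.77 to -0.09), beside 8.8% below 0. Of the genes with enough UMIs, 1 of 6 was higher and 1 of 6 lower in the excitatory and inhibitory classes, and 0 of 6 and 1 of 6 in the dentate granule class, where 8.16% of genes had an interval above 0.

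Against 5xFAD, intervals above 0 were common among all genes. In excitatory neuron-like nuclei of astrocyte MAGL-KO 5 of 7 genes had one beside the 44.6% given above: Cd44, Gfap (1.20, 0.48 to 1.95), Vim (3.17, 1.08 to 6.34, from 16 against 2 UMIs), Cp (0.65, 0.25 to 1.05) and Igfbp5 (0.21, 0.04 to 0.39). In neuron MAGL-KO 4 of 6 did, beside 41.4%: Cd44, Cp (0.60, 0.17 to 1.03), Gsn (0.53, 0.14 to 0.92) and Igfbp5 (0.23, 0.05 to 0.42). In global MAGL-KO 2 of 7 did, beside 17.4%: Cd44 and Vim (2.87, 0.80 to 6.03, from 17 against 2 UMIs). In dentate granule neuron-like nuclei of astrocyte MAGL-KO 4 of 7 did, beside 37.1%: Gfap (1.52, 0.38 to 2.79), Cp (1.41, 0.62 to 2.25), Cd44 (1.89, 0.24 to 3.94, from 15 against 4 UMIs) and Id3 (2.44, 0.25 to 5.66, from 11 against 2 UMIs). In neuron MAGL-KO 2 of 7 did, beside 31.2%: Igfbp5 and Id3 (2.87, 0.73 to 6.06, from 13 against 2 UMIs). In global MAGL-KO 1 of 6 did, beside 17.8%: Gsn (2.37, 0.60 to 4.76, from 19 against 3 UMIs). In inhibitory neuron-like nuclei Cd44 and Igfbp5 were above 5xFAD in astrocyte MAGL-KO (1.47, 0.89 to 2.09, and 0.37, 0.12 to 0.63) and in neuron MAGL-KO (1.05, 0.43 to 1.69, and 0.53, 0.28 to 0.78), and Cd44 alone in global MAGL-KO (1.00, 0.39 to 1.64). There 35.4%, 32.5% and 12.8% of genes had an interval above 0. Split by sex, the ratios were large in Xist nuclei, where 5xFAD had 2 Cd44 and 8 Igfbp5 UMIs: they were 2.48, 2.40 and 2.72 for Cd44 in astrocyte, neuron and global MAGL-KO, and 2.50, 2.40 and 1.97 for Igfbp5, all with intervals above 0. In Y-linked nuclei they were 1.21, -0.21 and -1.37 for Cd44 and 0.43, -0.21 and 0.18 for Igfbp5, and all 6 intervals held 0. In 5xFAD against wild type Igfbp5 was likewise lower in Xist nuclei (-2.06, -3.37 to -0.94, from 8 against 40 UMIs), and in Y-linked nuclei the interval held 0 (-0.16, -0.80 to 0.51). In excitatory neuron-like nuclei Igfbp5 in astrocyte MAGL-KO was at -0.23 in Xist (-0.52 to 0.07) and 0.45 in Y-linked nuclei (0.18 to 0.72), and in neuron MAGL-KO at -0.04 and 0.20 with intervals that held 0. Gsn there in neuron MAGL-KO, after adding 5 CPM, was 0.15 in Xist and -0.10 in Y-linked nuclei. Of the ratios of whole neuron classes against 5xFAD, only those of Igfbp5 in dentate granule neuron-like nuclei of astrocyte and global MAGL-KO had intervals below 0, and all not named here held 0.

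Igfbp5 in dentate granule neuron-like nuclei stood at 38.6, 40.7, 34.5, 51.4 and 32.4 CPM. The ratios against 5xFAD were -0.24 (-0.39 to -0.09) in the astrocyte MAGL-KO library, 0.34 (0.20 to 0.48) in neuron MAGL-KO and -0.33 (-0.47 to -0.19) in global MAGL-KO, and none was past 2-fold. Of all genes tested there, 7.99% had an interval below 0 in the first, 31.2% above 0 in the next and 9.49% below 0 in the last. Split by sex, those of astrocyte and global MAGL-KO had opposite signs. In Xist nuclei Igfbp5 stood at 40.0, 47.5, 25.1, 47.9 and 17.3 CPM, from 461, 345, 300, 639 and 212 UMIs. In Y-linked nuclei it stood at 37.6, 36.1, 48.6, 66.3 and 49.8 CPM, from 340, 412, 325, 208 and 480 UMIs. The global MAGL-KO ratio was -1.46 (-1.71 to -1.21) in Xist and 0.46 (0.27 to 0.66) in Y-linked nuclei, and the astrocyte MAGL-KO ratio was -0.92 (-1.15 to -0.69) and 0.43 (0.21 to 0.64). The neuron MAGL-KO ratio was 0.01 in Xist nuclei, with an interval that held 0 (-0.18 to 0.21), and 0.87 in Y-linked nuclei (0.63 to 1.12).

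The share of 1 cluster of granule neurons moved with this split; its part in the ratios is given as values without it. Cluster n12, 1932 nuclei whose leading genes include Pappa, Penk, Acvr1c and Sv2c, had low Igfbp5 in every library (16.4, 16.2, 8.97, 13.3 and 8.41 CPM). Pappa encodes a protease that cleaves insulin-like growth factor binding proteins, and Penk encodes the enkephalin precursor, which granule neurons raise with strong activity. Its share of Xist nuclei was 7.37%, 6.92%, 49.3%, 36.6% and 64.9%, and of Y-linked nuclei 7.59%, 8.92%, 6.08%, 7.44% and 4.12%. The 3 MAGL-KO libraries thus stood apart in their Xist nuclei and lay with the wild type and 5xFAD in their Y-linked nuclei. Without n12 Igfbp5 stood at 40.3, 42.9, 46.9, 70.7 and 47.0 CPM, and the ratios of astrocyte and global MAGL-KO against 5xFAD both turned to 0.13 with intervals that held 0. That of neuron MAGL-KO was 0.72 (0.58 to 0.86). In cluster n11, the largest other cluster, neuron MAGL-KO was above 5xFAD in Xist nuclei (70.4 against 55.9 CPM, 0.33, 0.05 to 0.62) and in Y-linked nuclei (72.2 against 39.5 CPM, 0.87, 0.51 to 1.22). Cluster n10 did not show the opposite signs clearly: against 5xFAD its ratios in Xist and Y-linked nuclei were 0.13 and 0.21 in astrocyte MAGL-KO and -0.09 and 0.21 in global MAGL-KO, and all 4 intervals held 0. In cluster n9 the ratios were -0.43 and 0.57 for astrocyte MAGL-KO and -0.39 and 0.73 for global MAGL-KO, and only those of Y-linked nuclei had intervals that excluded 0. The clusters were compared by sex after the values of the whole class were seen.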

How the data were processed

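RNA and chromatin accessibility were measured in single nuclei of mouse hippocampus, 1 library per group. UMI counts per gene and transposase cut-site counts per peak were deposited by the authors as unnormalised matrices with the peaks listed in each library, per the file headers. The submitters' processing notes name Cell Ranger ARC 2.0.0, Seurat and the build mm10, with no role given; the aligner and the annotation are not given in the sources used here. The notes do not say how replicates or animals were pooled.

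Barcodes entered with 500 or more genes and mitochondrial UMIs up to 5%, and the nuclei with the highest Scrublet scores were removed at 0.8% per 1000 nuclei (python 3.11.15, scanpy 1.11.5, anndata 0.12.19). Clusters were built without the 9 genes from 2000 variable genes, 40 and then 30 components, 15 neighbours and a resolution of 1 (igraph 0.11.9), and named from markers; clusters that met no rule stayed unnamed. Counts were summed per class and library. Intervals are exact at 95% (scipy 1.17.1, numpy 2.4.6), and UMIs, or cut sites in peaks, are the unit counted. For the 9 genes, a count of 0 in a class or peak is given with the upper bound of that interval. Ratios needed 10 UMIs over both libraries and 20 nuclei in each; a call of 2-fold used a pseudocount of 5 CPM. Shares of nuclei with a UMI were also given after thinning to 1000 UMIs. Sex was read from Xist and Y-linked UMIs, leaving out nuclei with both or neither. The ratio code was tested on simulated data. Figures were drawn with matplotlib 3.10.9.

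The 9 genes, the markers and the 7 lists were chosen with earlier results of these data known. All 9 genes are named in each comparison in astrocyte-like nuclei that they could enter, and in the other classes those whose interval excluded 0 and the ones followed in detail; from the lists, genes past 2-fold with at least 20 UMIs were named, and other list genes were named after their values were seen. Alternatives without the deepest nucleus, without nuclei holding vascular or choroid marker UMIs and without clusters n33 and n12, the split by sex within classes and clusters other than astrocytes, and the comparison with Aqp4 and Gja1 were chosen after seeing the data. No batch could be compared, since the labels carry the same batch name throughout. Sequences were taken from RefSeq, GRCm38.p6, by gene symbol.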

Additional observations from a re-analysis of the deposited data

Results flagged for a closer look

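Igfbp5 in dentate granule neuron-like nuclei had ratios of opposite sign in the nuclei with Xist and in those with Y-linked UMIs of the same libraries. In the astrocyte MAGL-KO library against 5xFAD the log2 ratio was -0.92 in Xist nuclei and 0.43 in Y-linked nuclei, and in the global MAGL-KO library it was -1.46 and 0.46. Within cluster n11 alone the ratios were -0.48 and 0.40 for astrocyte MAGL-KO, and -0.74 and 0.42 for global MAGL-KO. Each of these 8 intervals excludes 0 by counting error. Cluster n10 did not repeat it: its ratios were 0.13 and 0.21 for astrocyte MAGL-KO and -0.09 and 0.21 for global MAGL-KO, with intervals that held 0. In cluster n9 the ratios were -0.43 and 0.57 for astrocyte MAGL-KO and -0.39 and 0.73 for global MAGL-KO, and only those of Y-linked nuclei had intervals that excluded 0. With 1 library per group, the difference between the sexes was not tested, and it cannot be told apart from a difference between the mice pooled. Both libraries were set against the same 5xFAD nuclei.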

How the results depend on the processing

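No paired analysis was possible because there is 1 library per group and no test was made. For the results that answer a comparison, 132 values over the alternatives stayed with the reported one and 9 moved; a count that stayed does not say that its genes did. Where an alternative gave a ratio, no gene reported as past 2-fold changed sign, but values not past 2-fold did. Ggta1, reported as lower in microglia-like nuclei of neuron MAGL-KO, had too few UMIs for a ratio in Xist nuclei alone. It stood there at 23.5 CPM against 16.9 CPM in 5xFAD, from 3 and 2 UMIs. The median of the genes in 5xFAD against wild type, -0.04 as reported, ranged from -1.12 to 0.48. The low end is Gfap alone, the 1 gene with enough UMIs in Y-linked nuclei, and the high end rests on 4 genes. Gfap was past 2-fold lower in those Y-linked nuclei, in place of Cd44, opposite in sign to its reported ratio. The 1 gene past 2-fold lower in the astrocyte MAGL-KO library, Gfap, became 0 genes when classes were set by the highest marker score (84 to 233 astrocyte-like nuclei per library), when no doublets were removed, with the automatic Scrublet threshold and as a mean over nuclei. In Y-linked nuclei only the count was also 0, but there Gfap had 1 and 5 UMIs, under the 10 needed for a ratio, and stood at 13.1 against 47.3 CPM, so the direction was the same. In the neuron MAGL-KO library the count of 1 gene higher stayed in number but not in gene: without the deepest nucleus, without the nuclei holding vascular or choroid marker UMIs and with the highest marker score, Gsn fell under 2-fold and Id3 passed it. The ratio of Gsn there ranged from 0.88 to 1.45 and that of Id3 from 0.75 to 1.31. As a mean over nuclei that library had 2 genes higher and 1 lower. The 1 gene lower in 5xFAD against wild type, Cd44, became 0 when thinned to 1000 UMIs and without nuclei holding vascular or choroid marker UMIs, in both cases with too few UMIs for a ratio. The log2 ratio of Gfap in astrocyte MAGL-KO, after adding 5 CPM, ranged from -1.65 to -0.34, and in 5xFAD against wild type from that same -1.12 to 0.43. Neither range covers the Xist nuclei alone, which gave no ratio because 5xFAD had only 17 of them. There Gfap stood at 68.7, 211 and 37.7 CPM in the wild type, 5xFAD and astrocyte MAGL-KO. The causes were not tested. Of the other values, 1441 stayed and 67 moved. For the peaks at gene starts, a value stayed when it lay inside the interval of the reported one, so low counts make staying easier. Depth limits all of this: 28 to 70 astrocyte-like nuclei per library gave 9 to 27 Gfap UMIs, and intervals cover counting error only.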

Other observations

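Gfap UMIs were also counted in neuron-like nuclei, at levels far under those of astrocyte-like nuclei. Over the 3 neuron classes together Gfap stood at 0.174, 0.607, 1.36, 0.789 and 0.645 CPM, from 14, 51, 106, 52 and 62 UMIs. The log2 ratio was 1.80 (0.93 to 2.77) in 5xFAD against wild type and 1.16 (0.66 to 1.67) in the astrocyte MAGL-KO library against 5xFAD. An interval above 0 was common in these classes: 11.7%, 8.16% and 11.1% of genes had one in excitatory, dentate granule and inhibitory neuron-like nuclei in the first comparison, and 44.6%, 37.1% and 35.4% in the other. For comparison, Aqp4 and Gja1, other astrocyte transcripts chosen after the values were seen, together stood at 2.17, 2.19, 1.83, 1.73 and 1.90 CPM in the same nuclei, with ratios of 0.01 (-0.29 to 0.32) and -0.26 (-0.59 to 0.06). In the astrocyte MAGL-KO library Gfap was thus the highest of the 5 in neuron-like nuclei and the lowest of the 5 in astrocyte-like nuclei. Whether these UMIs come from free RNA was not tested.

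Patterns over 35 pairs of class and library (7 classes, 14541 genes) were set side by side as a description; the pairs of a library share its depth, and the pairs of a class its cells. Gfap was most like Sdc4 (Pearson r 0.96), Acat3 and Gja1, and Id3 most like Gjb6 (0.98), Plcd4 and Gja1. Osmr was most like Ppp1r3c (0.96), Gsn like Sept7 (0.95), Cp like Ccnd1 (0.94) and Ggta1 like Dapp1 (0.94). Among the 9 genes, Gfap and Id3 had an r of 0.94. Endothelial-like, mural or fibroblast-like, choroid plexus-like and Cajal-Retzius-like nuclei, under 20 in each library, were left out of these pairs. In endothelial-like and mural or fibroblast-like nuclei Id3 stood at 246 and 138 CPM. Gfap stood there at 0 CPM, which allows up to 101 CPM, and at 27.6 CPM.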
